A study of Homo sapiens with 6 samples.

Results

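Long intergenic noncoding RNAs named LINC with a number were examined in UE7T-9, an hTERT and HPV E7 immortalized line of human mesenchymal stem cells from bone marrow. RNA-seq was available for 3 libraries of UE7T-9 SHC4 (SHC4-OE below), in which SHC4 was overexpressed from a CMV promoter after lentiviral infection and puromycin selection. The 3 control libraries, UE7T-9 Cont (Cont below), are called nontarget with a WT genotype in the labels and are described by the paper as carrying a GFP vector. Both groups were the same line grown in DMEM, and no further treatment or time point is given. The submitters' design text speaks of clones of the overexpressing line. Whether libraries of one group came from different infections, clones or dishes is not stated, so p-values measure only the spread between these libraries. The LINC RNAs were selected on their symbol and on a mean normalized count of at least 20 over the 6 libraries, a measured value. A normalized count is a gene's read count divided by 1 size factor per library. This rule kept 147 of the 28181 genes listed. It left out 439 LINC genes with a mean from 1 to below 20 and 286 with a mean below 1, of 872 LINC genes in all. LINC00941 (mean 205) and LINC01336 (mean 29.2) reached the mean under their GENCODE 29 names. They were left out because the symbol list used gives no current symbol for their identifiers. Whether the names are still in use was not checked. Neither was called by limma (log2 fold change -0.17, adjusted p 0.812, and 0.71, adjusted p 0.386) or by DESeq2.

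A LINC symbol is a systematic name given to a long noncoding transcript that lies between protein-coding genes and has no better name, and for most of them no function is known. Those that have been studied act in different ways: some hold proteins at chromatin near their own gene, some bind microRNAs or proteins in the cytoplasm, and for others the act of transcription rather than the RNA affects a neighboring gene. As a class they are transcribed by RNA polymerase II, spliced and polyadenylated like messenger RNAs, present at lower levels, and more restricted to single cell types. SHC4, the overexpressed gene, encodes a member of the SHC family of adaptor proteins that couple receptor tyrosine kinases to downstream signaling.

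SHC4 itself had 56.5, 157 and 130 normalized counts in Cont and 134870, 119166 and 155006 in SHC4-OE, so every library fell on the side of its label (limma log2 fold change 10.32, SE 0.32, adjusted p 2.09e-06). The libraries held 18144993 to 27721397 reads in genes, and 3 reads corresponded to a normalized count of 2.50 to 3.53. All 10 mesenchymal markers examined had a mean of at least 20, and the summed hematopoietic markers came to 145 to 164 in Cont and 123 to 157 in SHC4-OE. The endothelial sum was 47.2 to 73.1 against 48.3 to 95.7, with CDH5 at a mean of 0.390. The epithelial sum of EPCAM, CDH1 and KRT18 was 55.3 to 127 against 8.32 to 39.5, and KRT18 carried most of the gap. Whether these cells or levels had a part in the values below was not tested. Cont library 1 stood apart: over all genes tested its log2 values had a correlation of 0.975 with SHC4-OE library 1, 0.967 with Cont library 2 and 0.962 with Cont library 3. It also held 315042 normalized counts of COL1A1, against 87857 and 67813 in the other Cont libraries, and SHC4-OE library 1 held 276719, against 130035 and 122241. Results that rest on it are given with and without it.

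The word intergenic was checked against GENCODE 29 gene models on GRCh38, which hold every identifier of the files. No protein-coding gene overlapped the gene body of 129 of the 147 LINC RNAs, and 18 were overlapped by one, 9 on the same strand and 10 on the opposite strand. In 10 of these an exon lay over an exon of a protein-coding gene, and since the library kit does not mark strand, reads of such pairs cannot be told apart. GENCODE 29 classed 114 as lincRNA, 15 as processed transcript, 8 as transcribed unprocessed pseudogene and 5 as antisense, and 1, LINC02693, as protein coding. The merged exons ranged from 331 to 28876 bases with a median of 3014, and 18 LINC RNAs had a single exon block. They were spread over 23 chromosomes, with the most on chromosome 1 (14), and 12 lay within 100 kb of another one. Between gene bodies that did not overlap, the median distance to the nearest tested protein-coding gene was 49512 bp. In 8 LINC RNAs over 50% of the 25-base words of the exons also occurred in another gene, up to 90.7% for LINC01145, so their counts are uncertain.

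The promoters of 4 LINC RNAs that differed between the groups by DESeq2 are shown because the start in the RefSeq table lay within 3 bases of the GENCODE 29 start. They span 250 bases before to 50 bases after the start, in the direction of transcription, from RefSeq on GRCh38.p14. LINC00973 lies at chr3:98980805-98981104 (plus strand), LINC01173 at chr2:234682418-234682717 (plus strand), LINC02057 at chr5:61264880-61265179 (minus strand) and LINC02202 at chr5:159100233-159100532 (plus strand). Capitals mark the letters TGANTCA, where N is any base, the pattern searched here for AP-1, a FOS and JUN dimer. The pattern also takes in middle bases that AP-1 may bind less well, and both marked matches read TGAGTCA.
LINC00973: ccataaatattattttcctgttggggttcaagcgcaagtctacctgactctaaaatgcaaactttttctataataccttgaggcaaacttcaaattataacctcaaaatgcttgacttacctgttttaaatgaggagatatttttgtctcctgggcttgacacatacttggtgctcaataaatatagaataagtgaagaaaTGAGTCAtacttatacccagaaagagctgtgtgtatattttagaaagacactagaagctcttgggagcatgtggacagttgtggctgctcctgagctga
LINC01173: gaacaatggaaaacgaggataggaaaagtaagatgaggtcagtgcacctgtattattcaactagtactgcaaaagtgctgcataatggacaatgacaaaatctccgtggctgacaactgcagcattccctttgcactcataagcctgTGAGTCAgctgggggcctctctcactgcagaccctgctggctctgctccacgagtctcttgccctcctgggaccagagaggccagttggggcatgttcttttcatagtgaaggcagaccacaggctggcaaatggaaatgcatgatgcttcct
LINC02057: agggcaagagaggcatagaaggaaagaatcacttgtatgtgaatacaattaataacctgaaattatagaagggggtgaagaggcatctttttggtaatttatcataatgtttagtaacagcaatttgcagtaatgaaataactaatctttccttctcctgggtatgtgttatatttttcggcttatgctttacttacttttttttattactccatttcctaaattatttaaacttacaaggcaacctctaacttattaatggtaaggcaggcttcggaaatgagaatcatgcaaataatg
LINC02202: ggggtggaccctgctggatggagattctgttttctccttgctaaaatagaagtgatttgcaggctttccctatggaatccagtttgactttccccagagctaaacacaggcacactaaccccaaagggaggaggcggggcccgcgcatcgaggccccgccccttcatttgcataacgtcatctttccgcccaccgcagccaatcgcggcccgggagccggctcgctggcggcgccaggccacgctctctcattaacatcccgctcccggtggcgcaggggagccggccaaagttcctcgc

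Of these 4, LINC00973 and LINC01173 held 1 AP-1 match each, at 49 and 103 bases before the start, and LINC02057 and LINC02202 held none of the 4 motifs searched. The motifs were TATAAA for a TATA box, TGANTCA for AP-1, TGACGTCA for the cAMP response element and TTCNNNGAA for STAT proteins, each on both strands; the last 3 read the same on either strand, and no match of one was counted for another. A promoter was found for 109 of the 147 LINC RNAs. TGANTCA occurred in 15 of them (13.8%) and in 7.71% of all 35116 promoters, TATAAA in 9.17% and 11.5%, TGACGTCA in 4.59% and 1.85%, and TTCNNNGAA in 9.17% and 7.66%. The GC content was 32.3% in LINC02057, 37.3% in LINC00973, 50% in LINC01173 and 61% in LINC02202, the only one of the 4 with many CpG pairs (21, against 1 to 3). Over the 109 promoters the median GC content was 55% and the median ratio of observed to expected CpG was 0.433, against 65.3% and 0.841 for protein-coding genes with a mean of at least 20. A match is only a description of letters, and no binding was measured here.

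Most LINC RNAs were present at low levels. The means ran from 20.2 to 3485 with a median of 59.6. Of the 147, 105 lay below 100, 36 from 100 to below 500 and 6 at 500 or above. Just inside the threshold were LINC01239 at 20.2, LINC00506 at 20.3 and LINC02714 at 20.5, and just outside it LINC02802 at 19.9, LINC01409 at 19.8 and LINC01094 at 19.8. For 19 LINC RNAs 1 group mean was below 20, the Cont mean in 6 and the SHC4-OE mean in 13. These passed through their higher group alone, so a difference between the groups was partly built into their choice. Among these, LINC02582, LINC02057 and LINC01411 had the largest fold changes. LINC03052, LINC02202, LINC00900, LINC00921 and LINC01060, described below, also passed in this way.

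To compare levels between genes, normalized counts were divided by the merged exon length in kb. LINC02154 was first with 2238 per kb, followed by LINC01085 with 467, LINC00674 with 243, LINC01173 with 237, LINC00106 with 229 and LINC02454 with 189. LINC00839 had 133, LINC01116 130, LINC02916 102 and LINC02381 96.8. The median over all 147 was 20.8 per kb, against 130 for protein-coding genes with a mean of at least 20. Of these 10, LINC02154 and LINC01173 differed between the groups by DESeq2 and 8 were not called. Their limma log2 fold changes, SHC4-OE minus Cont, ran from -0.35 for LINC02454 to 0.48 for LINC02916, with adjusted p from 0.373 to 0.832. LINC01085 had 1054, 1196 and 1008 normalized counts in Cont libraries 1 to 3 and 1776, 1065 and 1151 in SHC4-OE. Its ranges overlapped.

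LINC02154 set the total of the class. All 147 LINC RNAs together came to 17321, 16795 and 16197 normalized counts in Cont and 21681, 20610 and 21025 in SHC4-OE, and these ranges did not overlap. Without LINC02154 the sums were 15582, 15045 and 15572 against 16082, 15290 and 15145, and they overlapped. LINC02154 made up 3.86% to 10.4% of the sum in Cont and 25.8% to 28.0% in SHC4-OE.

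To see which LINC RNAs changed when SHC4 was overexpressed, each gene was compared between the groups. Across 23040 genes limma, on log2 of the normalized count plus 1, called 1 of the 147 LINC RNAs with an adjusted p under 0.05 and a log2 fold change beyond 1 in either direction, which was LINC02582, lower in SHC4-OE. Over all genes tested it called 0.0608%. In such bulk samples fewer cells that make an RNA and less of it per cell cannot be told apart. At an unadjusted p below 0.05 it gave 23 LINC RNAs (15.6%), 10 higher and 13 lower, against 14.4% of all genes tested and 18.4% of those with a mean of at least 20. DESeq2 on the recovered reads called 8 at the same thresholds, 3 higher (LINC02154, LINC00595 and LINC02202) and 5 lower (LINC02582, LINC02057, LINC01588, LINC00973 and LINC01173). It called 2.2% of all genes it tested, and among genes with a mean of at least 20 it called 1.1% higher and 1.18% lower. The 8 were 5.44% of the LINC RNAs. LINC02582, LINC02057 and LINC02202 passed the mean of 20 through their higher group alone, so part of their difference was built into the choice. Among the 128 with both group means at 20 or more, DESeq2 called 5 and limma 0. When each library was left out in turn, DESeq2 called LINC02154 and LINC02582 in all 6 fits. The other 6 of the 8 lost the call in 3 to 6 of these fits. Among protein-coding genes at the level of most LINC RNAs, a mean from 20 to below 100, DESeq2 called 7.23%, and among the 105 LINC RNAs in that range 6.67%. The quasi-likelihood test of edgeR called none of the 147 and 0.0631% of all genes it tested. At an unadjusted p below 0.05 it gave 24 of the 147, against 2795 of the 15859 genes it tested.

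**Figure D1:**
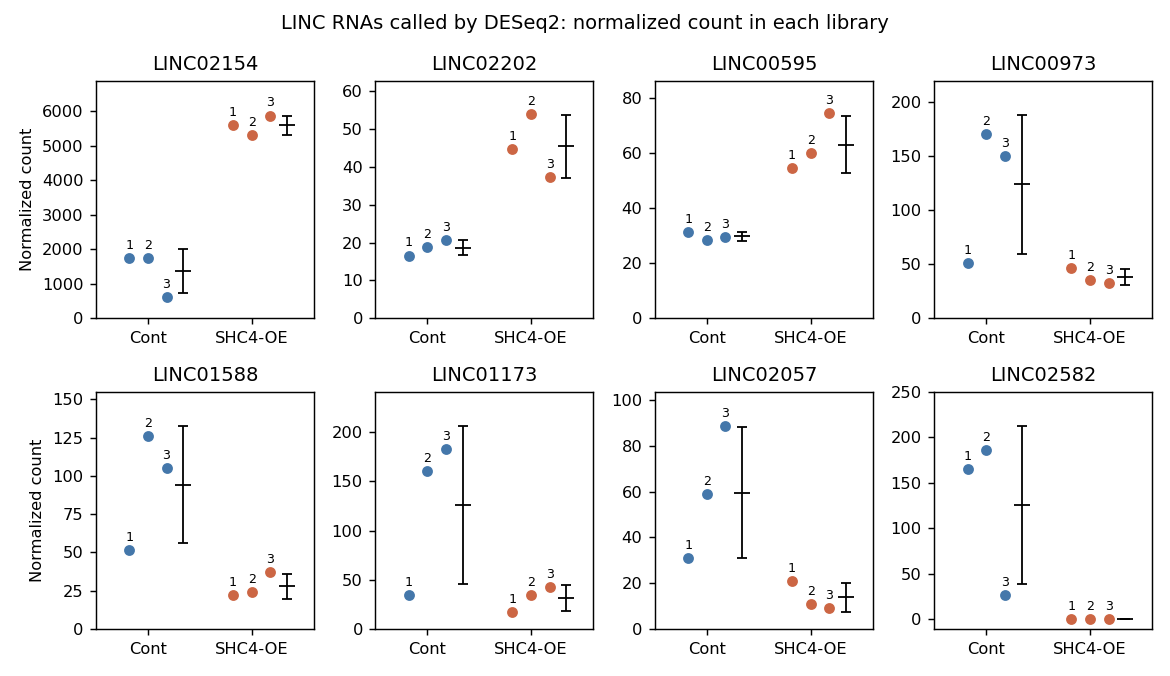
Normalized count (vertical axis, from 0 or just below it, a different scale in each panel) of the 8 LINC RNAs called by DESeq2 in the 3 Cont libraries (blue) and the 3 SHC4-OE libraries (orange); numbers are the replicate numbers, the dash is the mean and the bar the SD (n = 3). The groups do not overlap in 7 panels, and in LINC01173 the Cont library 1 (34.1) lies among the SHC4-OE libraries.

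Of the 3 LINC RNAs called higher by DESeq2, LINC02154 (ENSG00000235385, GRCh38 chrX:13266048-13303452, minus strand) had the largest values. It had 1739, 1749 and 625 normalized counts in Cont libraries 1 to 3 and 5598, 5320 and 5879 in SHC4-OE. All SHC4-OE libraries were close together and far above the highest control, while Cont library 3 was well below the other two. The group means were 1371 ± 646 and 5599 ± 280 (SD, n = 3), a ratio of 4.08. The log2 fold change was 2.17 (SE 0.34) with an adjusted p of 0.0771 by limma, and 2.03 (SE 0.33) with an adjusted p of 6.05e-07 by DESeq2. Without Cont library 1 the limma value was 2.42 with an adjusted p of 0.00577. Its nearest tested protein-coding gene, FAM9C, lay 221366 bp away; ATXN3L, at 14784 bp, was not analysed here. Of LINC02154, 2.38% of the 25-base words occurred in other genes.

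LINC02202 (ENSG00000245812, GRCh38 chr5:159100483-159117478, plus strand) had 16.6, 18.8 and 20.7 normalized counts in Cont and 44.8, 54.1 and 37.3 in SHC4-OE. The lowest SHC4-OE library was well above the highest control. The ratio of means was 2.43, and the log2 fold change was 1.23 (SE 0.32) with an adjusted p of 0.180 by limma and 1.29 (SE 0.41) with an adjusted p of 0.0468 by DESeq2. The DESeq2 call was lost whichever library was left out, with adjusted p from 0.0734 to 0.496. The gene starts 722 bp from EBF1, which encodes a transcription factor of B cell and stromal development. EBF1 had means of 1401 ± 235 and 1603 ± 149 (SD, n = 3) and a log2 fold change of 0.20 with an adjusted p of 0.571 by limma. Of the 25-base words of LINC02202, 21.7% occurred in other genes.

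LINC00595 (ENSG00000230417, GRCh38 chr10:78179185-78551355, plus strand), which GENCODE 29 names LINC00856, had 31.2, 28.3 and 29.5 normalized counts in Cont and 54.5, 59.9 and 74.5 in SHC4-OE. Its controls were the closest together of the 8, and all SHC4-OE libraries were above them. The ratio of means was 2.12, and the log2 fold change was 1.05 (SE 0.27) with an adjusted p of 0.180 by limma and 1.08 (SE 0.35) with an adjusted p of 0.0462 by DESeq2. The DESeq2 call held without Cont library 1 and was lost without any of the other 5 libraries, with adjusted p up to 0.349. No protein-coding gene that was tested lay within 100 kb of it.

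Of the 5 LINC RNAs called lower, LINC02582 (ENSG00000261780, GRCh38 chr18:73324941-73349878, plus strand) was the only one without a read in a whole group. It had 166, 186 and 26.6 normalized counts in Cont and 0 in all 3 SHC4-OE libraries. It was present in every control, with Cont library 3 the lowest. Set against 3 reads per library in SHC4-OE, the mean of the controls was at least 43.8-fold higher; this limit covers counting error only. limma gave an adjusted p of 0.0166 and DESeq2 8.52e-06, and without Cont library 1 they were 0.00496 and 0.00783. With limma the call was lost without Cont library 2 (adjusted p 0.156), without SHC4-OE library 2 (0.116) or library 3 (0.164), and by edgeR the adjusted p was 0.124. Of its 25-base words, 21.6% occurred in other genes. The nearest tested protein-coding gene, FBXO15, was 723475 bp away.

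LINC02057 (ENSG00000249279, GRCh38 chr5:61201309-61264929, minus strand) had 31.2, 58.9 and 88.5 normalized counts in Cont and 21.1, 10.8 and 9.32 in SHC4-OE. The groups were separated by the gap between Cont library 1 and SHC4-OE library 1. The log2 fold change was -2.00 (SE 0.47) with an adjusted p of 0.157 by limma and -2.10 (SE 0.54) with 0.00619 by DESeq2. The DESeq2 call was lost without Cont library 2 or 3 or SHC4-OE library 2 or 3, with adjusted p up to 0.176. Its neighbors within 100 kb were SMIM15, which encodes a small membrane protein, at a limma log2 fold change of -0.24, NDUFAF2, an assembly factor of respiratory complex I, at 0.05, and ZSWIM6 at -0.45, with adjusted p from 0.278 to 0.910.

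LINC01588 (ENSG00000214900, GRCh38 chr14:49927571-50092643, minus strand) had 51.7, 126 and 105 normalized counts in Cont and 22.0, 24.1 and 37.3 in SHC4-OE. Cont library 1 was again the lowest control and lay above all SHC4-OE libraries. The log2 fold change was -1.67 (SE 0.38) with an adjusted p of 0.151 by limma and -1.77 (SE 0.43) with 0.00301 by DESeq2. The DESeq2 call was lost without Cont library 2 or 3 or SHC4-OE library 2, with adjusted p up to 0.111. Within 100 kb, VCPKMT, SOS2, ARF6 and NEMF had limma log2 fold changes from -0.20 to 0.04, with adjusted p from 0.588 to 0.954. SOS2 is an exchange factor for RAS and ARF6 a small GTPase of membrane traffic.

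LINC00973 (ENSG00000240476, GRCh38 chr3:98981058-98983096, plus strand), whose AP-1 match is printed above, had 50.7, 171 and 151 normalized counts in Cont and 46.6, 35.8 and 32.6 in SHC4-OE. Cont library 1 was close to SHC4-OE library 1, and the other controls were far above. The log2 fold change was -1.50 (SE 0.44) with an adjusted p of 0.197 by limma and -1.69 (SE 0.45) with 0.00989 by DESeq2, and without Cont library 1 the limma value was -2.05 with an adjusted p of 0.00470. Without Cont library 2 or 3 the limma values were -1.19 (adjusted p 0.477) and -1.28 (0.433). The DESeq2 call was lost without either of these or without SHC4-OE library 2 or 3, with adjusted p up to 0.196. DCBLD2, a membrane receptor gene 79369 bp away, had means of 16842 ± 2432 and 11396 ± 890 (SD, n = 3). Its log2 fold change was -0.56, with an adjusted p of 0.206 by limma and 0.0222 by DESeq2.

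LINC01173 (ENSG00000280744, GRCh38 chr2:234682668-234717764, plus strand), the fourth most abundant per kb and the other promoter with an AP-1 match, had 34.1, 160 and 183 normalized counts in Cont and 16.7, 34.1 and 43.1 in SHC4-OE. Here Cont library 1 fell inside the range of SHC4-OE, so the groups overlapped. The log2 fold change was -1.75 (SE 0.62) with an adjusted p of 0.258 by limma and -2.01 (SE 0.57) with 0.0180 by DESeq2. Without Cont library 1 the limma value was -2.51 with an adjusted p of 0.00904. Without Cont library 2 or 3 it was -1.41 (0.558) and -1.32 (0.525). DESeq2 no longer called it without either of these or without SHC4-OE library 1 or 2, with adjusted p up to 0.247. No 25-base word of LINC01173, LINC00973 or LINC01085 occurred in another gene.

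More LINC RNAs were called when Cont library 1 was left out. Without Cont library 1 limma called 10 of the 147 LINC RNAs, 4 higher and 6 lower, against 3.06% of all genes tested. DESeq2 called 12 of the 147, against 5.57%. The share among genes of similar level was not computed for these fits, so the counts do not show that LINC RNAs were called more often. With all libraries DESeq2 called 6.67% of LINC RNAs with a mean below 100. For protein-coding genes with a mean from 20 to below 100 it called 7.23%. The 10 called by limma without Cont library 1 were LINC02154, LINC01133, LINC00840 and LINC01423, higher, and LINC02582, LINC00973, LINC01173, LINC01588, LINC02535 and LINC02057, lower. LINC02535 had 27.3, 75.3 and 99.4 normalized counts in Cont and 26.4, 25.8 and 26.8 in SHC4-OE. Its Cont library 1 sat just above the 3 closely grouped SHC4-OE libraries, and its limma log2 fold change of -1.14 (adjusted p 0.303) became -1.68 (0.0159) without that library. Cont library 1 was the control farthest from the other two in 67 of the 147 LINC RNAs (45.6%), against 49.4% of all genes with a mean of at least 20. SHC4-OE library 1 was the farthest of its own group about as often, in 66 LINC RNAs (44.9%), against 52.1% of those genes.

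In 14 LINC RNAs the lowest SHC4-OE library exceeded the highest Cont library, and in 16 the highest SHC4-OE library was below the lowest Cont library. Together these were 20.4% of the 147. Of all genes whose mean reached 20, 11.2% lay above and 11.8% below. With 3 libraries against 3 the exact two-sided permutation test of a single gene cannot go below 0.1. Without Cont library 1, 61 LINC RNAs (41.5%) did not overlap, against 47.9% of those genes, a comparison of 2 libraries with 3. In 31 LINC RNAs (21.1%) Cont library 1 alone joined the groups, against 24.8% of those genes, and in 25 (17.0%) SHC4-OE library 1 alone did, against 17.6%.

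**Figure D2:**
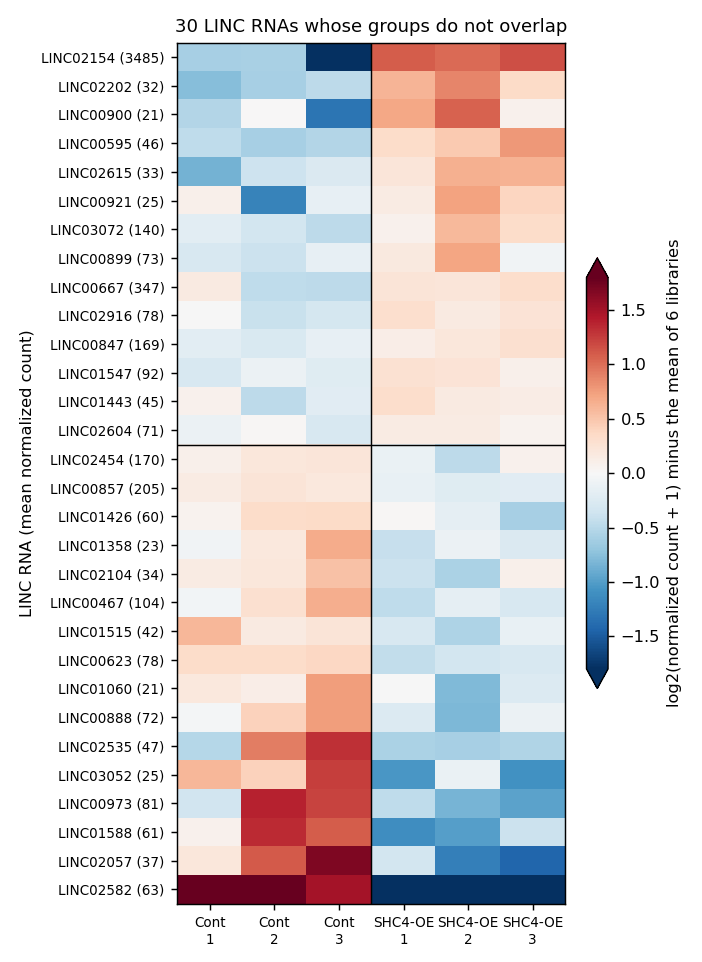
Heat map of the 30 LINC RNAs whose groups do not overlap, ordered by log2 fold change; color is log2(normalized count + 1) in each library (columns) minus the mean of the 6 libraries, with colors saturated beyond 1.8 in either direction, and the number after each name is the mean normalized count. The 14 above the horizontal line are higher in SHC4-OE and the 16 below it are lower, and the lowest rows show Cont library 1 closer to SHC4-OE than the other controls in LINC02535, LINC00973, LINC01588 and LINC02057.

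Besides those already described, LINC00900 had 12.7, 18.8 and 6.89 normalized counts in Cont and 30.8, 40.0 and 19.8 in SHC4-OE, and LINC02615 had 16.6, 23.5 and 25.6 against 36.0, 48.3 and 47.7. The lowest SHC4-OE value of LINC00900 was close to the highest control, and LINC02615 had a wider gap. Their limma log2 fold changes were 1.22 (SE 0.47) and 0.99 (SE 0.33), with adjusted p of 0.289 and 0.238. LINC00921, LINC03072 and LINC00899 had 0.84, 0.67 and 0.55. LINC00921 shares exon sequence with ZNF263 on the same strand, so its reads cannot be told from those of ZNF263, which had a log2 fold change of 0.12.

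In the other direction, LINC03052 had 32.2, 28.3 and 51.2 normalized counts in Cont and 9.67, 19.1 and 9.32 in SHC4-OE. The groups were separate, but 61.7% of its 25-base words occurred in other genes, so its counts are uncertain. Its limma log2 fold change was -1.50 (SE 0.43) with an adjusted p of 0.195. LINC00888 and LINC01060 had -0.76 and -0.70, with adjusted p of 0.297 and 0.456. LINC01411, with 36.1, 20.01 and 72.8 in Cont and 5.27, 15.0 and 21.0 in SHC4-OE, overlapped by less than 1 normalized count between Cont library 2 and SHC4-OE library 3. The other 117 LINC RNAs had groups that overlapped.

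**Figure D3:**
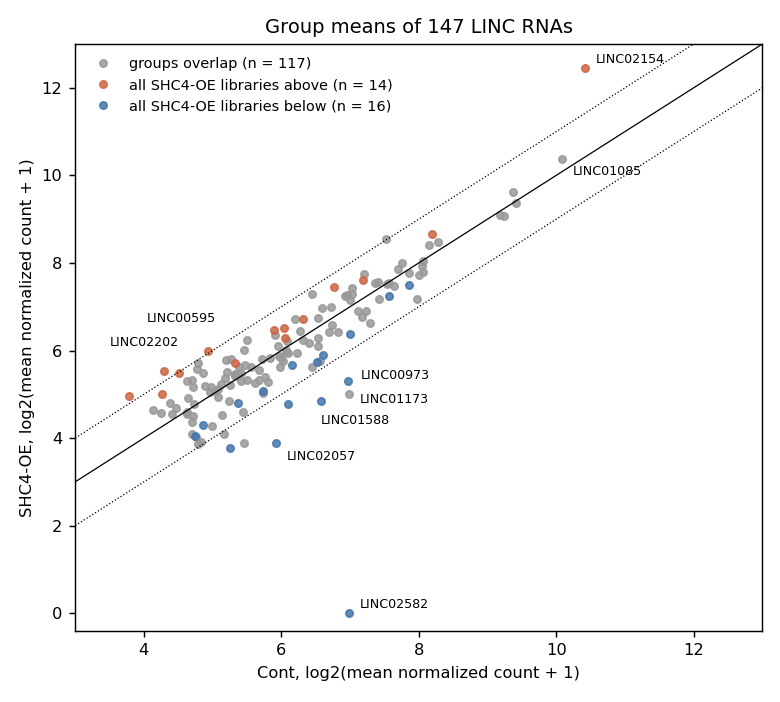
Mean of the 3 SHC4-OE libraries (vertical axis) against the mean of the 3 Cont libraries (horizontal axis) for the 147 LINC RNAs, each as log2(mean normalized count + 1); the solid line marks equal means and the dotted lines a log2 difference of 1. Most points lie between the dotted lines, LINC02154 stands at the top and LINC02582 at 0 in SHC4-OE.

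Across the class, differences in both directions were about equally common. Of the 147 limma log2 fold changes 77 were above 0 and 70 below, with a median of 0.03 and quartiles of -0.35 and 0.32. Over all genes whose mean reached 20 the median was 0.00. The median SE of a LINC RNA was 0.32, against 0.18 for those genes. Among the 105 LINC RNAs with a mean below 100 it was 0.363, against 0.356 for protein-coding genes with a mean from 20 to below 100. An absolute log2 fold change above 1 was seen for 14 LINC RNAs (9.52%), against 4.63% of all genes with a mean of at least 20 and 17.2% of protein-coding genes with a mean from 20 to below 100. Among the 105 LINC RNAs in that range it was 11.4%. The share was thus above that of all genes and below that of protein-coding genes of similar level. The median coefficient of variation over all 147 LINC RNAs was 25.2% in Cont and 21.0% in SHC4-OE. Among the 105 with a mean below 100 it was 26.5% and 27.0%, against 30.8% and 23.7% for the protein-coding genes of similar level.

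**Figure D4:**
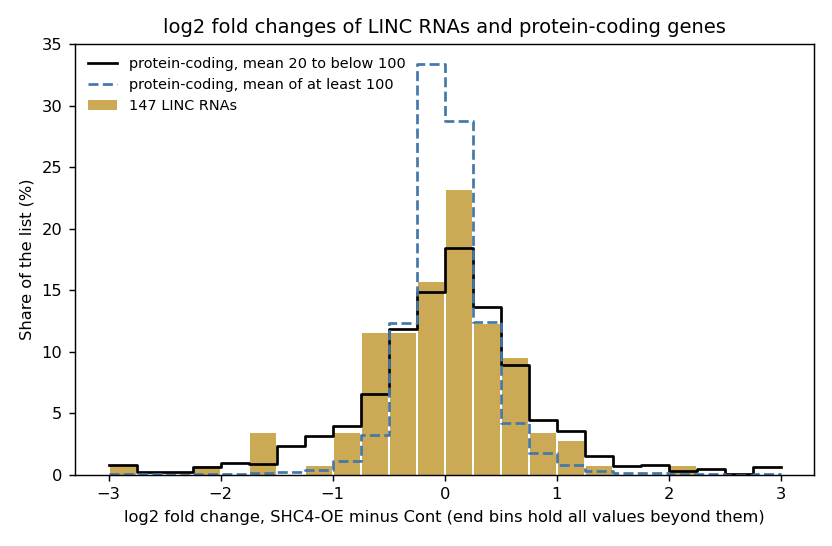
Share of each list (vertical axis, %) by limma log2 fold change, SHC4-OE minus Cont (horizontal axis, bins of 0.25, end bins hold all values beyond them), for the 147 LINC RNAs (bars), protein-coding genes with a mean from 20 to below 100 (solid line) and protein-coding genes with a mean of at least 100 (dashed line). Beyond 1 in either direction lie 9.52% of the LINC RNAs and 17.2% of the protein-coding genes with a mean from 20 to below 100, and the more abundant genes are gathered near 0.

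Some LINC RNAs have published roles, mostly in tumor cells, and 13 of a list of 29 such RNAs were among the 147. The list was matched by symbol and 21 were found, so a listed RNA that is present under another name was missed. LINC00941 (mean 205), also listed, was left out as described above. None of these 13 passed the limma or the DESeq2 test with all 6 libraries. Of all genes tested, limma called 0.0608% and DESeq2 2.2%. LINC01133, studied in several carcinomas, had 367, 128 and 52.1 normalized counts in Cont and 611, 212 and 302 in SHC4-OE, with a log2 fold change of 1.32 (SE 0.62) and an adjusted p of 0.377 by limma. Cont library 1 was above 2 of the SHC4-OE libraries, and without it the value was 2.04 with an adjusted p of 0.0350. LINC01503 had a log2 fold change of 0.94 (adjusted p 0.332), LINC00968 0.59 (0.375) and LINC00899 0.55 (0.393). LINC00467, which holds a short open reading frame for a mitochondrial peptide, had -0.60 (0.299), and all its SHC4-OE libraries were below the controls. LINC00520 varied widely within both groups, with 48.7, 306 and 399 against 48.3, 166 and 217, and both libraries numbered 1 were the low ones. LINC00511, LINC00662, LINC01116, LINC02381, LINC00472, LINC00702 and LINC01705 lay between -0.55 and 0.27, with adjusted p from 0.572 to 0.849.

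Other long noncoding RNAs were described beside them. Of the 439 LINC genes with a mean from 1 to below 20, DESeq2 tested 82 and called 5 (6.10%), 2 higher and 3 lower. It called 2.2% of all genes it tested and 7.23% of protein-coding genes with a mean from 20 to below 100. None of the 302 antisense RNAs and none of the 23 SNHG genes, which host small nucleolar RNAs, with a mean of at least 20 was called by limma, DESeq2 or edgeR. At an unadjusted p below 0.05 by limma there were 32 (10.6%) and 2 (8.70%), against 18.4% of all genes with a mean of at least 20. From a list of 40 other long noncoding RNAs, limma tested 38 and called none. It gave 10 (26.3%) at an unadjusted p below 0.05, against 14.4% of all genes tested and 18.4% of those with a mean of at least 20. The median of the means in this list was 163. DESeq2 tested 35 and called 2 (5.71%), both lower. One of them, PURPL, a p53-induced RNA, had 45.8, 157 and 205 normalized counts in Cont and 20.2, 21.6 and 19.8 in SHC4-OE, with a DESeq2 adjusted p of 3.16e-05. The other, LUCAT1, had 16.6, 93.0 and 174 against 16.7, 11.7 and 5.82, with a DESeq2 adjusted p of 0.00178. In both, Cont library 1 was the lowest control, as in LINC02057, LINC01588, LINC00973 and LINC01173, and in LUCAT1 it lay below a SHC4-OE library. MALAT1 and NEAT1, which are retained in the nucleus, had DESeq2 log2 fold changes of 0.92 and 0.77, below the fold threshold, with adjusted p of 0.0209 and 0.0349.

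The fold change of each LINC RNA was set beside that of its nearest tested protein-coding gene. The directions were the same in 91 of 147 pairs. In the 12 pairs with overlapping gene bodies they were the same in 11, and Pearson's r was 0.65. In the 95 pairs without overlap and within 100 kb they were the same in 57, and r was 0.16. The points share libraries and, in the overlapping pairs, possibly reads, so these values are descriptions only. None of the tested protein-coding genes within 100 kb of LINC02057, LINC01588, LINC00973 and LINC02202 was called by limma or DESeq2.

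**Figure D5:**
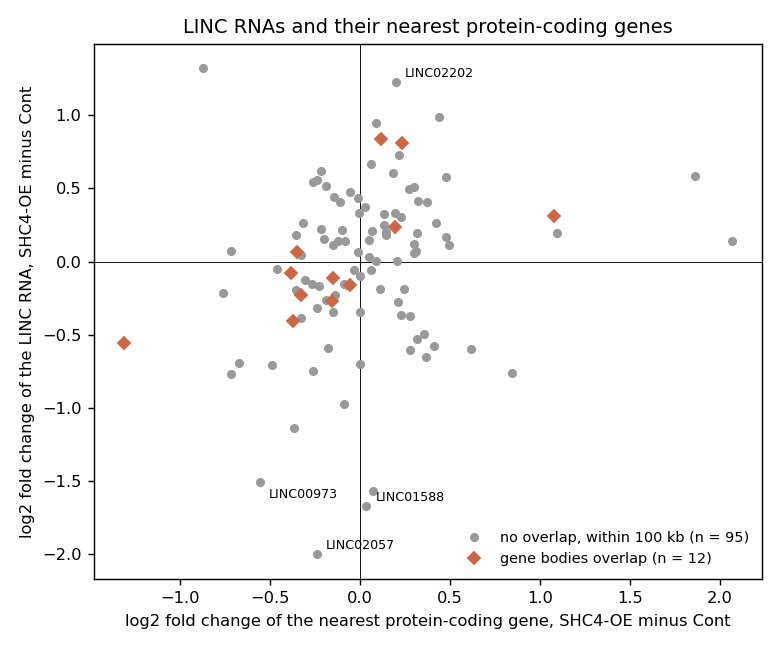
limma log2 fold change of a LINC RNA (vertical axis) against that of its nearest tested protein-coding gene (horizontal axis), SHC4-OE minus Cont, for pairs within 100 kb (gray, n = 95) and pairs whose gene bodies overlap (orange diamonds, n = 12). Of the diamonds 11 have the same sign on both axes, and the 4 named LINC RNAs lie far from 0 on the vertical axis with neighbors closer to 0.

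Neighboring LINC RNAs gave few pairs to compare. LINC01443 and LINC01444, which overlap, had limma log2 fold changes of 0.41 and 0.52. LINC00526 and LINC00667, which also overlap, had 0.06 and 0.51. LINC01303 and LINC03033 had 0.20 and 0.18, and LINC00662 and LINC02987 had 0.27 and -0.36. In all 4 pairs the gene bodies overlap, and reads of exons they share cannot be told apart.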

How the data were processed

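Libraries of 6 UE7T-9 samples, 3 with SHC4 overexpression and 3 controls, were prepared with the NEBNext Ultra RNA kit and sequenced on a NovaSeq instrument. The deposited values are a signal for each Ensembl identifier in each library, which is the gene's count over 1 size factor (a normalized count). HISAT2 2.0.5, featureCounts 1.5.0-p3 and DESeq2 stand in the submitters' processing notes, and the genome build is not given in the sources used here. All values were whole multiples of the value of 1 read (within 0.01 reads; 100% of values), so read counts were recovered. The design had assumed either unit, and normalized values called for limma 3.58.1 (lmFit, eBayes with trend; R 4.3.3) on log2(value + 1) for 23040 genes with a mean of at least 1. A call required an adjusted p (Benjamini-Hochberg) under 0.05 and a log2 fold change beyond 1 in either direction. DESeq2 1.42.0 and edgeR 4.0.16 on recovered reads were alternatives, with other scalings, filters, a pseudocount of 0.1, a replicate block and leaving out each library. The tests were tested on simulated data.

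Symbols were current ones for 27968 of 28181 identifiers. Genes named were those called by any tool, the 10 highest per kb, up to 8 per direction with the largest fold change among those whose groups did not overlap, the 3 on either side of the threshold, the 3 with the largest fold among those that passed through 1 group, and LINC RNAs with published roles; LINC00840 and LINC01423, the neighboring pairs and the extra long noncoding RNAs were named after their values were seen. The LINC RNAs and the lists were chosen with earlier results of these data known. Positions come from GENCODE 29 (GRCh38).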

Additional observations from a re-analysis of the deposited data

How the results depend on the processing

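The number of LINC RNAs called by limma (1) was 8 with DESeq2, 0 with edgeR, and 2 each with library size scaling (1 higher, 1 lower), with no filter on low values and with the replicate block, with the same numbers when no fold change was required. It was 0 for the 128 LINC RNAs with both group means at 20 or more. Leaving out 1 library gave 0 to 10 calls, or 0 to 11 with no fold threshold, with 15 to 41 at an unadjusted p below 0.05. The count was 0 without Cont library 2, SHC4-OE library 2 or library 3, and 10 without Cont library 1. Over all genes limma called 14 with all libraries, and from 2 (without SHC4-OE library 2 or 3) to 706 (without Cont library 1). It called 28 with library size scaling, 40 with no filter and 39 with the replicate block. The DESeq2 count (8) was 2 to 12 without 1 library, and 2 without Cont library 2 or 3 or SHC4-OE library 2. It was 4 without SHC4-OE library 3, 5 at a mean of at least 50 and 5 with both group means at 20 or more. Over all genes DESeq2 called 355 and edgeR 10 with all libraries. Without 1 library DESeq2 called from 105 (SHC4-OE library 2) to 892 (Cont library 1). Groups did not overlap in 50 of 215 LINC RNAs (23.3%) with a mean of at least 10 and in 17 of 80 (21.25%) with a mean of at least 50. The share of all genes at these minimum means was not computed. These 2 counts therefore have no like share beside them and do not set LINC RNAs apart from other genes. At a mean of at least 20, the groups did not overlap in 20.4% of LINC RNAs. Of all genes at that minimum mean, 11.2% lay above and 11.8% below.

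The median log2 fold change of 0.03 was -0.0144 with DESeq2, -0.0111 with edgeR, -0.0662 with library size scaling (which moved the median of all genes to -0.10), -0.0436 at a mean of at least 10, -0.0336 at a mean of at least 50 and -0.00261 to 0.0473 without 1 library. Of 546 values for the 39 named LINC RNAs, 518 kept direction and side of the threshold, 18 passed it only in the alternative and 4, all of LINC02582, no longer did. The remaining 6 values changed direction, each without 1 library, and belonged to 5 LINC RNAs. Without 1 library the ranges were -0.0157 to 0.42 (LINC00472), -1.53 to 0.0620 (LINC00520), -0.0715 to 0.40 (LINC00702), -1.09 to 0.20 (LINC01705) and -0.25 to 0.0526 (LINC02381). LINC00702 changed direction both without Cont library 1 and without SHC4-OE library 3. The replicate block, with 2 calls, added LINC02154 (adjusted p 0.0464 by limma). Same-numbered libraries had deviation correlations of 0.148, 0.0130 and -0.00696, against -0.108 to 0.0992 for Cont and SHC4-OE libraries with different numbers. Whether same-numbered libraries shared a batch is not stated and was not tested. GENCODE 29 names gave 131 LINC RNAs, 113 of them shared, with 1 call by limma and 9 by DESeq2; this alternative, and leaving out exon overlaps, were chosen after seeing the data. At 3 reads per library a normalized count below 2.50 to 3.53 cannot be told from 0. The cause of these shifts was not tested.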
